A study of Arvicanthis niloticus with 5 samples.

Results

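The opsin family was examined in the eye of the Nile rat (Arvicanthis niloticus), a day-active African rodent. The 7 genes examined were taken by symbol from the deposited ortholog table. They were the cone opsins Opn1mw and Opn1sw and the non-visual opsins Opn3, Opn4 and Opn5. Rrh and Rgr, opsins of the cells that support photoreceptors, were also included. Rhodopsin, the opsin of rods, was not among the 7 genes. A gene counted where any of the mouse, rat or human names of a transcript was its symbol, in any case of letters. The 7 genes were carried by 10 transcripts, of 13981 genes and 15453 transcripts that carried a symbol. The labels list 5 samples of eye tissue, numbered 1, 3, 5, 7 and 9, all of wild type genotype and strain WT, and describe a library pooled from 5 rats. The sources used here give no age, sex or lighting. The deposited table has 1 column of levels for the whole series. No source used here says if that column combines all 5 samples or stands for a single one, and it is treated below as 1 pool. No value below therefore has a replicate error, no group was compared and no test was made.

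Opsins are receptors of the G protein-coupled class that hold a retinal molecule and change shape when light isomerizes it. Cone opsins start vision in daylight: Opn1mw encodes the pigment for middle wavelengths and Opn1sw the pigment for short wavelengths, which in mice and rats absorbs in the ultraviolet. Melanopsin (Opn4) makes a small class of retinal ganglion cells sensitive to light, and these cells set the circadian clock and the pupil. Opn5 (neuropsin) is a pigment for violet and ultraviolet light, and Opn3 (encephalopsin) is found in many tissues. Rgr, which binds all-trans-retinal, is made in the retinal pigment epithelium and in Müller glia, and Rrh (peropsin) is made in the pigment epithelium.

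Levels are given as FPKM, which is fragments per kilobase of transcript and per 1000000 mapped fragments, and which divides by transcript length so that genes can be compared. A gene with several transcripts was given the sum of their FPKM. Brackets hold 95% intervals for counting error alone, since they contain no variation between animals or libraries. In a whole-eye pool, fewer cells of a type and less RNA per cell cannot be told apart.

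The 7 opsins spanned a wide range in the eye RNA. Rrh was highest at 172 FPKM [168 to 176], on 7447 fragments. Opn1mw was at 162 FPKM [157 to 167] on 3978 fragments, and Rgr at 128 FPKM [127 to 130] on 39646 fragments. Opn1sw followed at 63.7 FPKM [60.7 to 66.9], on 1879 fragments. The non-visual opsins made up the low end, with Opn3 at 11.6 FPKM [10.5 to 12.6] on 501 fragments and Opn4 at 6.21 FPKM [5.81 to 6.62] on 914 fragments. Opn5 was lowest at 1.65 FPKM [1.43 to 1.90], on 194 fragments, where a count of 0 would have allowed up to 3 fragments or 0.0255 FPKM. Together the 7 genes, which leave out rhodopsin, held 545 FPKM, or 0.221% of the FPKM of all named genes.

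**Figure D1:**
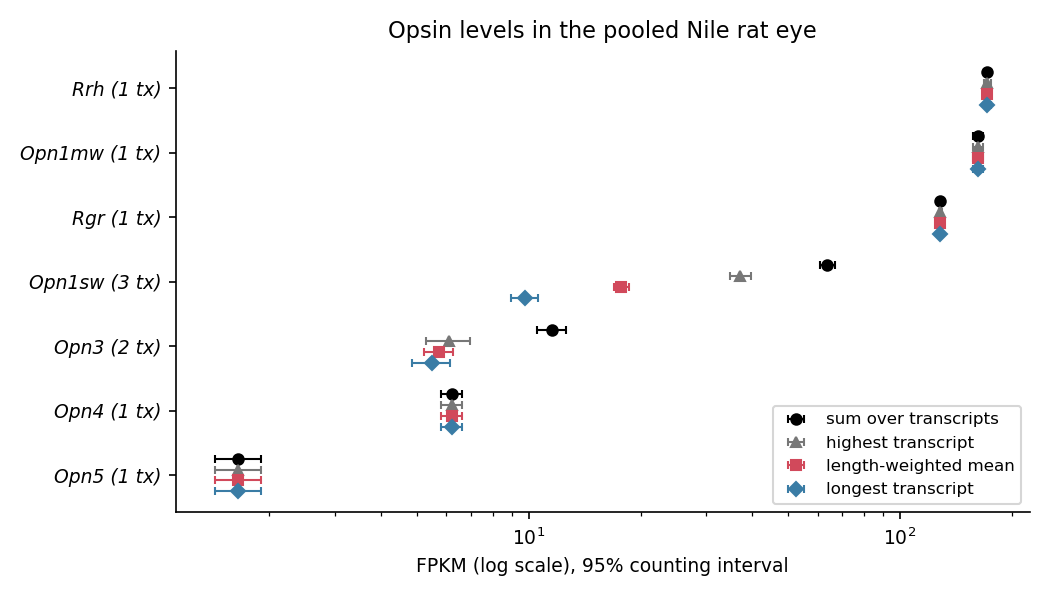
Level of each opsin in FPKM on a log scale, from the highest gene at the top to the lowest, with the number of transcripts (tx) in brackets. Each gene has 4 points, for the sum over its transcripts, its highest transcript, the length-weighted mean and its longest transcript, and the bars are 95% counting intervals. The points of Opn1sw spread between 9.74 and 63.7 FPKM, while genes with 1 transcript have the same value 4 times.

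Each neighbouring pair in this order was further apart than the counting error of the summed FPKM. The closest pair was Rrh over Opn1mw, at 1.06-fold [1.02 to 1.10]. With all lengths reduced by 150 nt, as an assumed fragment length, the log2 ratio of Rrh over Opn1mw turned to -0.28. Their transcripts were 667 nt long for Rrh and 378 nt long for Opn1mw. Opn1mw was 1.26-fold [1.22 to 1.30] above Rgr, and 2.03-fold [1.96 to 2.09] above it with the reduced lengths. Rgr was 2.01-fold [1.92 to 2.11] above Opn1sw on summed FPKM, 7.22-fold [6.89 to 7.56] with a length-weighted mean and 1.28-fold [1.21 to 1.34] with the reduced lengths. Opn1sw was 5.52-fold [4.99 to 6.10] above Opn3 on summed FPKM and 3.11-fold [2.82 to 3.43] with a length-weighted mean. The log2 ratio of this pair turned to -0.25 when transcripts under 500 nt were left out, which removed 2 of the 3 of Opn1sw. Opn3 was 1.86-fold [1.67 to 2.08] above Opn4 on summed FPKM, and Opn4 was 3.77-fold [3.22 to 4.40] above Opn5.

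Set among all named genes, the family fell into a high and a low part. All 7 opsins reached FPKM 0.5 and FPKM 1, as did 99% and 93.2% of named genes, so that these counts say little of the opsins. At FPKM 5 there were 6 of the 7, against 59.8% of named genes. At FPKM 10 there were 5 of the 7, or 4 with a length-weighted mean, which took Opn3 below that level, against 34%. At FPKM 100 there were 3 of the 7 (Rrh, Opn1mw and Rgr), against 2.21%. Rrh was higher than 98.9% of the other named genes, with 149 of them above it. Opn1mw was higher than 98.9% and Rgr higher than 98.4%. Opn1sw was higher than 95.8% of them on summed FPKM and higher than 80.8% with a length-weighted mean. Opn3 was higher than 70.4% on summed FPKM and higher than 45.1% with a length-weighted mean. Opn4 was higher than 48.3%, close to the median named gene at 6.50 FPKM. Opn5 was higher than 13.2% and stood at 0.254 times the median.

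**Figure D2:**
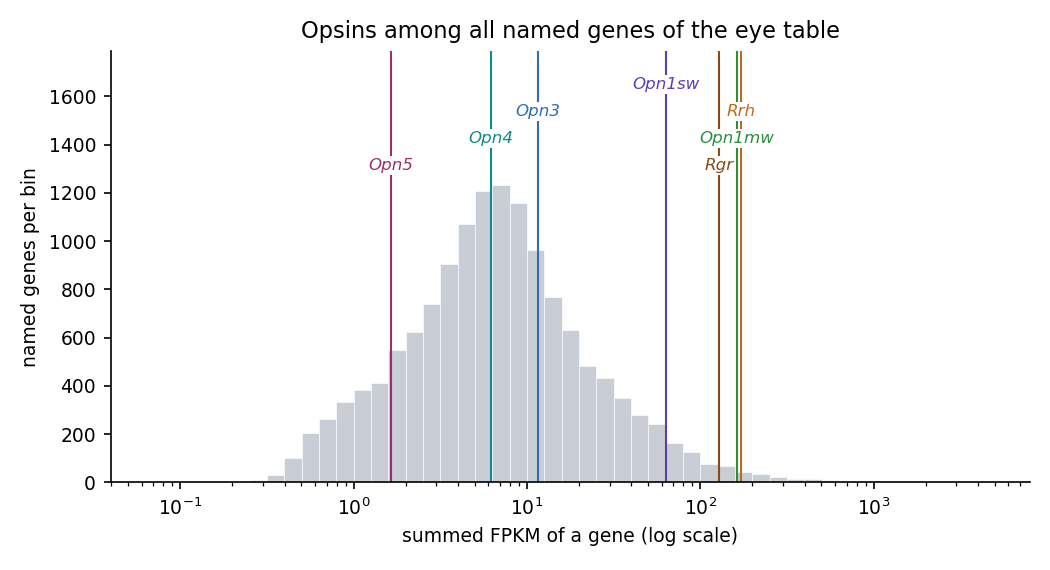
Number of named genes per bin of summed FPKM (log scale) in grey, with a coloured line at the level of each opsin. Rrh, Opn1mw and Rgr lie in the upper tail, Opn4 at 6.21 FPKM lies close to the median gene at 6.50 FPKM, and Opn5 lies in the lower flank.

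The fragments behind these levels were divided very unequally. All shares here are of the total of the 7 genes, without rhodopsin. Rgr, on a transcript of 4756 nt, held 72.7% of the fragments but 23.5% of the FPKM. Rrh, on 667 nt, held 13.6% of the fragments and 31.5% of the FPKM. Opn1mw, on 378 nt, held 7.29% of the fragments and 29.7% of the FPKM. The counting error was therefore smallest for Rgr. The place of Rgr below Rrh and Opn1mw came with the division by length.

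**Figure D3:**
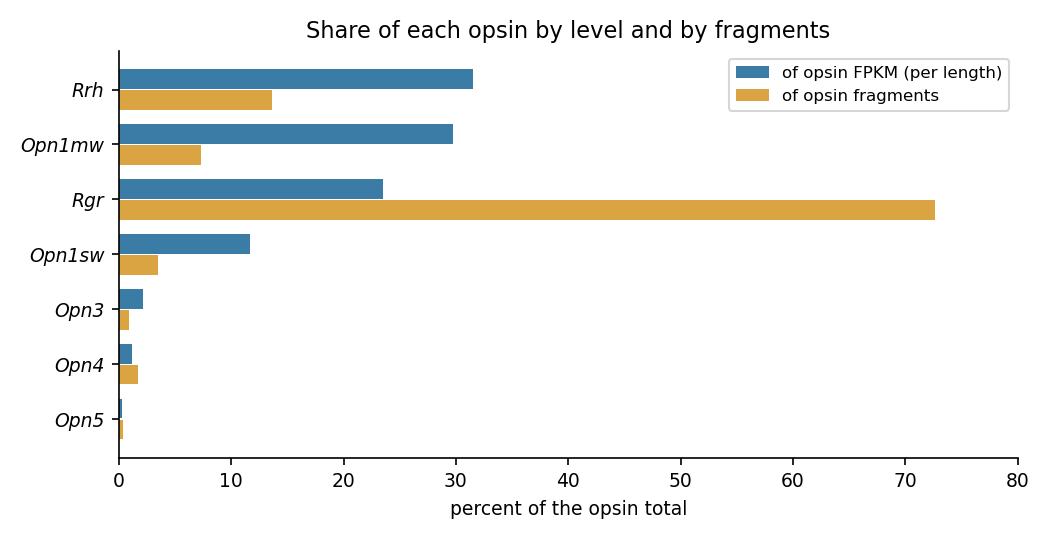
Percent of the summed FPKM (blue) and of the summed fragments (yellow) of the 7 opsins, without rhodopsin, held by each of them. Rgr holds 72.7% of the fragments and 23.5% of the FPKM, and the order of the first 3 genes differs between both measures.

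Most opsin transcripts were short. The median length was 2156 nt over the named transcripts and 388 nt over all transcripts of the table. The transcripts of Opn4 (2266 nt) and Rgr (4756 nt) were longer than the median named one, and the other 8 were shorter. Short named transcripts had low levels as a rule, so each opsin transcript was also set against named transcripts whose length was within 20% of its own. Among 512 such transcripts, with a median of 0.885 FPKM, Opn1mw was above 96.5%. Rrh was above 96.5% of 999 transcripts with a median of 3.54 FPKM, and Rgr above 99.7% of 2119 transcripts with a median of 6.70 FPKM. Opn4 was above 50.3% and Opn5 above 11.0% of the transcripts of like length. The 3 transcripts of Opn1sw were above 87.2%, 86.5% and 66.9% of theirs, and the 2 of Opn3 above 64.1% and 53.6%, below the summed ranks of both genes.

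**Figure D4:**
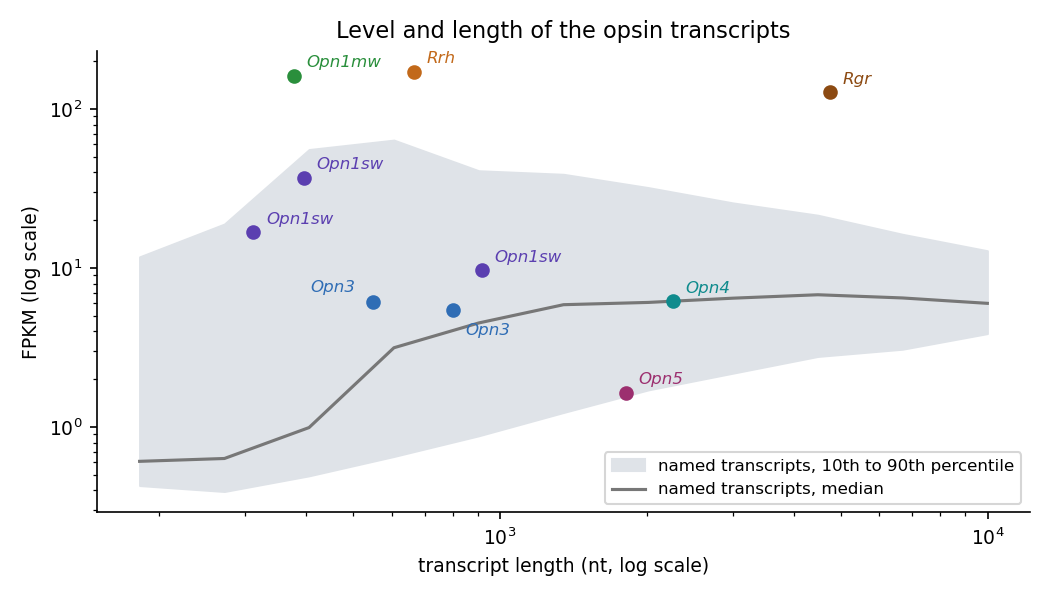
FPKM against transcript length, both on log scales, for the 10 opsin transcripts (coloured points), over the median (line) and the 10th to 90th percentile (band) of all named transcripts in bins of length. Opn1mw, Rrh and Rgr lie above the band, the 3 Opn1sw transcripts and the 2 Opn3 transcripts lie inside it, and Opn5 lies near its lower edge.

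The cone opsins were carried in different ways. Opn1mw had 1 transcript, which bore the symbol in mouse and in human. Opn1sw was split over 3 transcripts, each named from a single species. The one named in human, of 396 nt, was at 37.1 FPKM [34.8 to 39.6]. The one named in rat, of 312 nt, was at 16.9 FPKM [15.1 to 18.8], and the one named in mouse, of 919 nt, was at 9.74 FPKM [8.96 to 10.6]. These intervals do not overlap, and the highest transcript was 3.81-fold above the lowest. Fragments of Opn1mw and of all 3 Opn1sw transcripts were not whole numbers, so some fragments were divided between transcripts. Which transcripts they were divided between is not given in the deposited table, and the intervals leave out any error from that division.

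The ratio between the cone opsins therefore depended on what the Opn1sw transcripts are. If they are separate isoforms, their sum applies, and Opn1mw was 2.54-fold [2.40 to 2.69] above Opn1sw, which then made up 28.2% of both. If they are pieces of 1 mRNA, the length-weighted mean applies, with Opn1sw at 17.8 FPKM [17.0 to 18.6], 9.11-fold below Opn1mw and 9.89% of both. With the highest transcript of each gene the share of Opn1sw was 18.7%, and with the longest, a choice added after the values were seen, it was 5.67%. Opn1mw was the higher in all of these settings. Since Opn1mw itself rested on 378 nt, any further transcript of it without a symbol is not in these ratios.

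Genes of the cone transduction chain, which carries the signal of the cone opsins to the membrane channel, were set beside them. Of 20 listed symbols, Arr3 and Gngt2 were carried by no transcript and Gucy2d and Gucy2e were names of the same transcript, which left 17 genes. Of these, 15 were at FPKM 10 or more, against 34% of named genes, and 4 at FPKM 100 or more, against 2.21%. Their median was 45.6 FPKM, against 6.50 FPKM for all named genes. These values are not of cones alone, since the list held genes that rods use as well. Among these are the highest, the guanylate cyclase activators Guca1a (410 FPKM) and Guca1b (228 FPKM). The lowest gene of the list was the cyclase Gucy2f at 1.54 FPKM. Among the genes also listed as cone markers, the transducin subunits Gnb3 (156 FPKM) and Gnat2 (139 FPKM) were highest. Opn1mw was 1.04-fold [1.00 to 1.07] above Gnb3 and 1.17-fold [1.13 to 1.21] above Gnat2. With lengths reduced by 150 nt, which was tried for these pairs after the values were seen, it was 1.58-fold [1.52 to 1.63] above Gnb3 and 1.85-fold [1.79 to 1.92] above Gnat2. Opn1mw was 29.5-fold [27.8 to 31.3] above the cone channel subunit Cnga3 (5.49 FPKM), the lowest of the cone markers, and 47.2-fold [44.6 to 50.1] with the reduced lengths. Opn1sw was 2.17-fold [2.07 to 2.28] below Gnat2 on summed FPKM and 7.80-fold [7.44 to 8.17] below it with a length-weighted mean. With the reduced lengths it was 1.39-fold [1.32 to 1.47] below Gnat2.

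Transcription factors that direct photoreceptor fate and the choice of cone opsin, with the rod markers Nrl and Nr2e3 among them, were all measured except Prdm1. Of the 14 carried by a transcript, 9 were at FPKM 10 or more, against 34% of named genes. Their median was 13.4 FPKM. Otx2 (115 FPKM) and Crx (91.8 FPKM), which drive photoreceptor genes in general, were highest, and Sall3 was lowest at 3.14 FPKM. The thyroid hormone receptor Thrb, which in mice is needed for Opn1mw, was at 7.24 FPKM [6.86 to 7.64], and the retinoid receptor Rxrg, which in mice represses Opn1sw, was at 15.6 FPKM [15.0 to 16.3]. These 2 receptors were chosen after their values were seen.

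Rrh and Rgr were both among the 3 highest of the 7 opsins. The transcript of Rrh was named Rrh in human only and that of Rgr was named Rgr in mouse only, and the other species columns of each held an Ensembl identifier. Rgr was 1.34-fold [1.31 to 1.37] below Rrh. The fragments of Rrh were whole numbers and those of Rgr were not. In the RefSeq annotation of a Nile rat genome, the assembly mArvNil1.pat.X, the gene Casp6 overlaps the span of Rrh. Casp6 was at 10.4 FPKM in the eye, and without the strand of the reads its part in the fragments of Rrh was not tested.

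**Figure D5:**
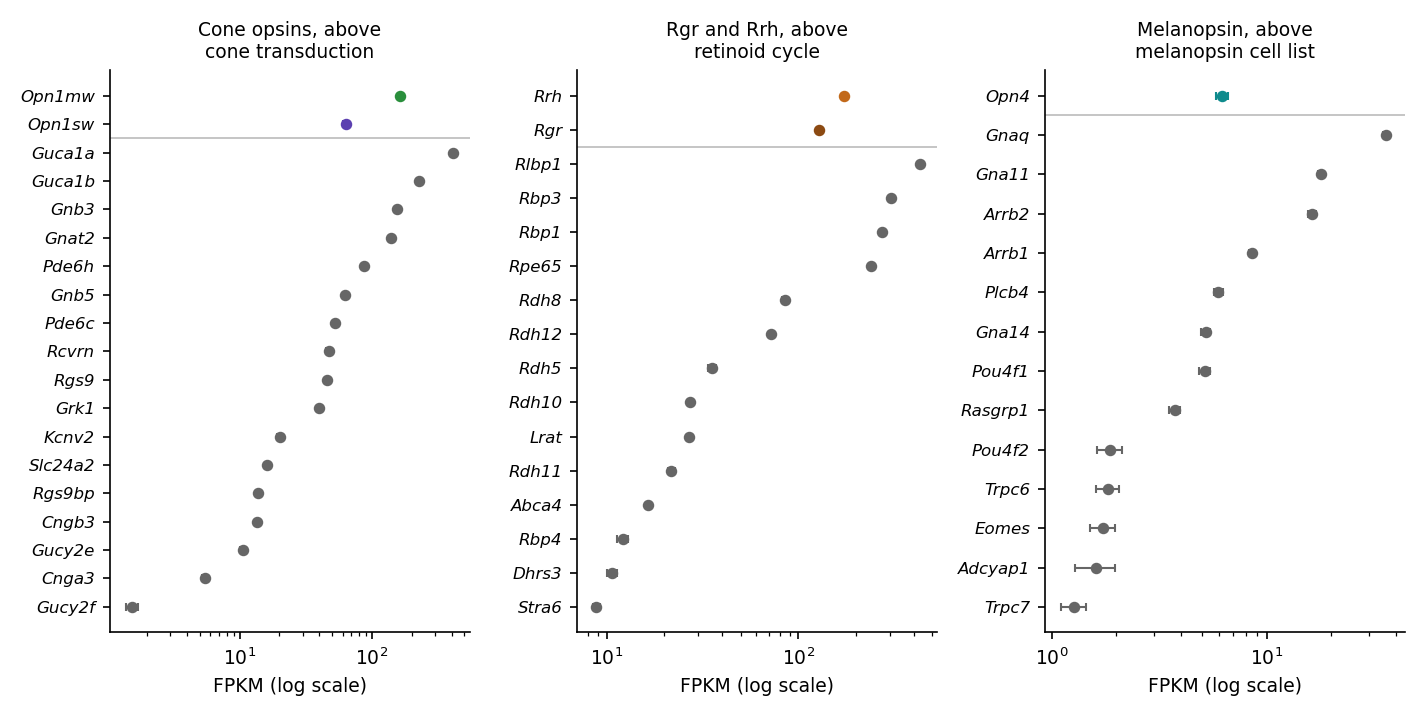
FPKM (log scale, 95% counting intervals) of the cone opsins above the cone transduction list (left), of Rrh and Rgr above the retinoid list (middle) and of Opn4 above the melanopsin list (right), each list sorted by level. Opn1mw at 162 FPKM lies next to Gnb3 at 156 FPKM and Gnat2 at 139 FPKM, Rrh and Rgr lie below Rlbp1 and Rpe65, and Opn4 lies below Gnaq and Gna11 and above Trpc7.

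Retinoid cycle genes, which make and carry the 11-cis-retinal that opsins bind, were high in the same pool. All 14 listed genes were measured, and 13 were at FPKM 10 or more, against 34% of named genes. The median of the list was 31.3 FPKM. The highest were the retinal carriers Rlbp1 (432 FPKM) and Rbp3 (305 FPKM), and the lowest was the retinol receptor Stra6 at 8.85 FPKM. Rrh was 1.39-fold [1.35 to 1.42] below the isomerase Rpe65 (238 FPKM), which is made in the pigment epithelium. Rgr was 1.86-fold [1.83 to 1.88] below Rpe65 and 3.37-fold [3.32 to 3.41] below Rlbp1, which both the pigment epithelium and Müller glia make. Against the median of the retinoid list, Rrh and Rgr were both higher.

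Opn4 was carried by 1 transcript of 2266 nt, named Opn4 in mouse and in rat, with a whole number of fragments. Its list held the Gq signalling chain that melanopsin uses, markers of melanopsin ganglion cells, and Pou4f1 and Pou4f2, which were also listed as general ganglion cell markers. Of 15 symbols, 13 were measured, since no transcript carried Grk2 or its older name Adrbk1. Of the 13, 3 were at FPKM 10 or more, against 34% of named genes. Their median of 5.15 FPKM was below that of all named genes. The Gq subunits Gnaq (35.7 FPKM) and Gna11 (17.8 FPKM), which most cells make, were highest, and the channel Trpc7 was lowest at 1.27 FPKM. Opn4 was 2.87-fold [2.67 to 3.08] below Gna11 and 4.89-fold [4.21 to 5.67] above Trpc7. It was 3.33-fold [2.88 to 3.85] above Pou4f2 (1.86 FPKM), the lowest of the 8 ganglion cell markers, and 9.28-fold [8.66 to 9.94] below Thy1 (57.6 FPKM). Eomes, a transcription factor of melanopsin cells that was named after its value was seen, was at 1.73 FPKM [1.51 to 1.97], and Opn4 was 3.59-fold [3.11 to 4.15] above it.

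Opn3 was split over 2 transcripts, and these were alike in level. The one of 549 nt, named in human, was at 6.08 FPKM [5.30 to 6.95], and the one of 799 nt, named in mouse, was at 5.47 FPKM [4.85 to 6.15], so that their intervals overlap. Their sum was 11.6 FPKM and their length-weighted mean 5.72 FPKM [5.23 to 6.24]. On the sum Opn3 was above Opn4, while on the length-weighted mean the log2 ratio of Opn3 over Opn4 was -0.12 [-0.28 to 0.039], an interval that holds 0. The order of Opn3 and Opn4 was therefore not settled by these data. In the same RefSeq annotation the gene Chml overlaps the span of Opn3. Chml was at 7.85 FPKM, and its part in the fragments of Opn3 was not tested.

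Opn5 was the lowest opsin under all settings in which all 7 genes had a value. It was carried by 1 transcript of 1811 nt named Opn5 in mouse, with 194 fragments, a whole number. Opn3 was 7.01-fold [5.93 to 8.28] above it on summed FPKM and 3.47-fold [2.94 to 4.09] with a length-weighted mean. Of the Gi and Go subunits, through which Opn3 and Opn5 of mammals are known to signal in cell assays, all 5 listed genes were measured. Their median was 35.9 FPKM, the highest were Gnai2 (108 FPKM) and Gnai3 (35.9 FPKM), and the lowest was Gnaz at 1.38 FPKM. Of these subunits, Gnai2 and Gnai3 are made in most cell types.

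As classes, the cone opsins summed to 226 FPKM and the non-visual opsins to 19.4 FPKM, a difference of 11.6-fold [10.9 to 12.4]. Rrh and Rgr summed to 300.2 FPKM, which was 15.5-fold [14.6 to 16.4] above the non-visual opsins. The cone opsins were 1.33-fold [1.29 to 1.37] below Rrh and Rgr, but with lengths reduced by 150 nt the log2 ratio of cone opsins over Rrh and Rgr was 0.073. The gap to the non-visual opsins was at least 3.47 on the log2 scale for the cone opsins and at least 3.88 for Rrh and Rgr, in all settings that gave a value.

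Markers of 9 cell types were measured, in which opsins are known or which an eye sample can hold. Against 6.50 FPKM for all named genes, median levels were 69.4 FPKM for 6 cone markers, 36.2 FPKM for 9 rod markers, 12.7 FPKM for 8 ganglion cell markers, 60.2 FPKM for 7 pigment epithelium markers and 163 FPKM for 7 Müller glia markers. The cone markers ranged from 5.49 to 156 FPKM and the rod markers from 5.24 to 502 FPKM. The rod list held the transcription factors Nrl and Nr2e3 and the cone list held none, so their medians do not compare cones with rods. Median levels for tissues outside the retina were 1367 FPKM for 8 lens markers, 118 FPKM for 4 of the corneal epithelium, 91.2 FPKM for 4 of skeletal muscle and 45.5 FPKM for 6 of melanocytes. Tyrp1, Mlana and Pmel were in both the melanocyte and the pigment epithelium lists, so the medians of these lists do not separate melanocytes from the pigment epithelium. The part of each tissue in the level of an opsin was not tested.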

How the data were processed

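RNA of Nile rat eyes was sequenced as a library pooled from 5 rats, per the labels' protocols. Per the file headers, the deposited table gives for each of 124439 transcripts the FPKM, an estimated fragment count and a length, and states 64967222 mapped fragments. The estimated counts deposited by the authors are not scaled, 39.3% are not whole, and they sum to 66703011, which is 2.67% above the stated total. Bowtie was used, per the submitters' processing notes; the sources used here do not give its version, the assembler, the counter or any genome build. The deposited FPKM of the opsins was rebuilt from count, full length and stated total within a relative tolerance of 1e-05.

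For all named genes a transcript took its first symbol in the order mouse, rat, human. For opsins and listed genes any species column was used. No transcript outside the 10 carried any of the 23 Ensembl identifiers paired with them. Of the 7 symbols, 6 were found in RefSeq, used for names and neighbours only, and the one not found was Opn1mw. Levels carry gamma (Fay-Feuer) and ratios delta-method Poisson intervals at 95%, which cover counting error only, since PCR copies are not independent molecules. Both were tried only on counts simulated with Poisson error, which checks the formulas and not whether that error holds in these data. The genes named are the opsins and the 2 highest and the lowest of each list, with exceptions stated. Marker lists are given by medians, and those of cones and rods also by their range. Members and lists were chosen with earlier results of these data known. Alternatives were other ways to combine transcripts, filters on length, level and naming, rescaling to a sum of 1000000, a shorter length and a pseudocount of 1. Intervals were computed with SciPy 1.17.1 and NumPy 2.4.6 under Python 3.11.15, tables with pandas 2.3.3, and plots with Matplotlib 3.10.9.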

Additional observations from a re-analysis of the deposited data

How the results depend on the processing

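The log2 ratio of Opn1mw over Opn1sw, 1.35 on summed FPKM, was 3.19 with a length-weighted mean, 2.12 with the highest transcript, and 4.06 both with the longest transcript and with the mouse column only. The log2 ratio of cone over non-visual opsins, 3.54, was 3.73, 3.84 and 3.69 with the length-weighted mean, the highest and the longest transcript, 3.69 with the mouse column only and 3.98 with lengths reduced by 150 nt. That of Rrh and Rgr over the non-visual opsins, 3.95, was 4.47, 4.43 and 4.49 with the length-weighted mean, the highest and the longest transcript. Direction was reversed for Opn3 over Opn4 (-0.12 with the length-weighted mean, -0.029 with the highest transcript, -0.18 with the longest and with the mouse column only), for Opn1sw over Opn3 without transcripts under 500 nt (-0.25), and with lengths reduced by 150 nt for Rrh over Opn1mw (-0.28) and for cone opsins over Rrh and Rgr (0.073). The longest transcript was a choice added after the data were seen. Rescaling and leaving out transcripts under FPKM 1 changed no ratio. With transcripts under 500 nt left out Opn1mw had no value, with the mouse column only Rrh had none, and with the symbol required in 2 species only Opn1mw and Opn4 had one. Division by a RefSeq coding length and the comparison of protein sequences were not run. No paired analysis was possible because the table holds 1 column, which is not stated to combine the 5 samples or to hold 1 of them, and for the same reason no sample could be left out. Over the alternatives Opn1sw ranged between 9.74 and 103.9 FPKM, Opn1mw between 118 and 269 FPKM and Opn5 between 1.20 and 1.80 FPKM.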

Other observations

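The protein-coding genes next to the opsins in the RefSeq annotation of the assembly mArvNil1.pat.X gave these levels in the same pool. Opn1mw had no neighbours to look up, as its symbol was not found in that annotation. Calu, next to Opn1sw, was at 48.8 FPKM, and Ccdc136, on the other side, at 11.2 FPKM. Lrit3 and Gar1, on either side of Rrh, were at 2.29 and 11.8 FPKM. Ldb3, next to Opn4, was at 12.3 FPKM over 2 transcripts. No transcript carried the symbol of Wapl, on the other side of Opn4, or of the genes flanking Rgr (Ccser2 and Lrit1), Opn5 (Ptchd4 and Adgrf4) or Opn3 (Kmo and Wdr64). Whether any opsin transcript, such as the 4756 nt one of Rgr, extends into a neighbour was not tested, since no genome sequence was used here.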
